A study of Mus musculus with 2 samples.

Results

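The miR-30 family was examined in hippocampal tissue of female mice aged 25 days, by sequencing their short RNA. Its 6 genes, Mir30a, Mir30b, Mir30c-1, Mir30c-2, Mir30d and Mir30e, were taken by matching the Ensembl identifiers of the count tables to GENCODE M21, and they are 6 of the 2202 miRNA genes in the tables. The mice were B6CASTF1/J, the hybrid offspring of the C57BL/6J and CAST/EiJ strains. The study holds 2 libraries, replicates 2 and 1 of a single group of that strain, sex, age and tissue, with no treatment or mutation named in the labels. The tissue is called a layer of the hippocampus, and the layer is not named. Both samples carry the same donor entry and the labels do not state that they came from separate mice, so differences between them may be technical.

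A microRNA is cut from an RNA hairpin as a short strand from its 5p or 3p arm, and it represses messenger RNAs that match its seed, bases 2 to 8. Members of the miR-30 family share the seed of their 5p strand. In mammals the family lies in tandem pairs, in each of which genes of different sequence type sit side by side. In neurons miR-30a is known as a repressor of the growth factor Bdnf, and in human cell lines of the autophagy gene BECN1.

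The mature strands are shown because they decide which reads can be credited to a gene: reads that match several places entered no gene count. RefSeq sequences (GRCm38.p6, the assembly also called mm10) were held for 4 of the 6 members, Mir30a, Mir30c-1, Mir30c-2 and Mir30e. Each line runs 5′ to 3′, with the seed in capitals. The last line is a strand from a gene outside the family, Mir384, which had the same seed.
miR-30a-5p (Mir30a): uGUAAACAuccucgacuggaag
miR-30e-5p (Mir30e): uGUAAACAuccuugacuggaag
miR-30c-5p (Mir30c-1 and Mir30c-2): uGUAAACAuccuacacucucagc
miR-384-5p (Mir384): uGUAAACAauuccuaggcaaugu

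The strand miR-30c-5p was identical at 2 loci, so its full-length reads cannot be credited to either Mir30c-1 or Mir30c-2. The hairpins of these genes shared an identical stretch of 28 bases. The strands miR-30a-5p and miR-30e-5p differed at 1 position, C13U, with the miR-30a base first and positions counted from 1 at the 5′ end. The 1738 mature strands compared here came from a RefSeq table with a chromosome left out. Among them, 5 entries carried the seed GUAAACA: those of the 4 members and miR-384-5p.

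The 3p strands are shown because they set the Mir30c genes apart where the 5p strand does not. Here capitals mark the positions that differ within each couple of strands.
miR-30c-2-3p (Mir30c-2): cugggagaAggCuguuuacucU
miR-30c-1-3p (Mir30c-1): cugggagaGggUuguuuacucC
miR-30a-3p (Mir30a): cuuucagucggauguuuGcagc
miR-30e-3p (Mir30e): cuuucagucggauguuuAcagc

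The strands of Mir30c-2 and Mir30c-1 differed at 3 positions (A9G, C12U and U22C), and those of Mir30a and Mir30e at 1 (G18A). The tables count reads per hairpin gene, so the share of each arm is unknown.

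The 3 tandem pairs lie on different chromosomes (mm10, positions counted from 1). Mir30a (ENSMUSG00000065405.3) occupies 23272269 to 23272339 on the plus strand of chromosome 1, where GENCODE M21 has no other gene over it. Its partner Mir30c-2 (ENSMUSG00000065567.1) lies 19361 bases further on, at 23291701 to 23291784, within an exon of the lincRNA Gm27028. On chromosome 15, minus strand, Mir30d (ENSMUSG00000065437.1) lies at 68341208 to 68341289 in an exon of the lincRNA Gm20732. Its partner Mir30b (ENSMUSG00000065476.2) lies at 68337415 to 68337510, and 16 of its bases overlap an exon of the noncoding gene Gm26621. On chromosome 4, minus strand, Mir30e (ENSMUSG00000065409.1) at 120772606 to 120772697 and Mir30c-1 (ENSMUSG00000065490.1) at 120769534 to 120769622 lie in an intron of Nfyc, which encodes a subunit of the CCAAT-binding factor NF-Y.

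Replicate 2 held 4266963 reads on the main strand of miRNA genes and replicate 1 held 5481053. Reads matching several places made up 46.4% and 41.9% of all reads in replicates 2 and 1. A gene was called detected at 2 CPM (counts scaled to 1000000 over all gene rows) or more in each library, and all 6 members were among the 433 detected genes. Of the neuronal marker miRNAs, 11 of 14 were detected, with summed levels of 83079 CPM in replicate 2 and 59805 CPM in replicate 1. That sum mixes directions. Among the neuronal markers with a mean of at least 100 CPM, Mir149, Mir128-1, Mir128-2, Mir137 and Mir9-3 were higher in replicate 2. Mir132, Mir212, Mir138-1 and Mir138-2 were lower. For other cells, summed levels in replicates 2 and 1 were 939 and 6503 CPM for 3 oligodendrocyte genes, 1099 and 1986 CPM for 5 microglial genes, and 12895 and 21958 CPM for 3 endothelial and mural genes. They were 5837 and 74.8 CPM for 6 epithelial genes, 1839 and 28.3 CPM for the 3 genes of the sensory Mir183 cluster, and 65.9 and 88.1 CPM for 3 erythroid genes. Of the listed genes none was at 0 in either library, and their part in the differences below was not tested.

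Together the 6 genes held 1.56% of the miRNA counts in replicate 2 (1.55 to 1.57) and 1.77% in replicate 1 (1.76 to 1.79), with 95% Clopper-Pearson intervals in brackets. This was a summed level of 16683 ± 1497 CPM (SD, n = 2). Intervals here cover counting error only. Nearly all of the counted level came from Mir30d, Mir30a and Mir30e, with 95.3% of the family's counts in replicate 2 and 98.1% in replicate 1. Full-length reads of miR-30c-5p, which Mir30c-1 and Mir30c-2 share, entered no count. These shares therefore do not measure the part of miR-30c-5p in the family. In tissue, fewer cells with a miRNA and less of it per cell cannot be told apart.

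Mir30d, whose product is known in mouse beta cells for raising insulin gene expression, had the highest level of the family. It reached 6145 CPM in replicate 2 and 9447 CPM in replicate 1, a mean of 7796 ± 2335 CPM (SD, n = 2), and ranked 29 among all miRNA genes by mean level. Mir30e reached 5159 CPM in replicate 2 and 3426 CPM in replicate 1, a mean of 4293 ± 1226 CPM. Mir30a reached 3589 and 4524 CPM in replicates 2 and 1, a mean of 4056 ± 661 CPM. The libraries' ranges of Mir30e and Mir30a overlapped, and both lay below the range of Mir30d. Divided by the length of the hairpin gene, Mir30a stood above Mir30e, at 5713 ± 931 and 4666 ± 1332 CPM per 100 bases. Counts of short strands need not grow with that length, so these values are no measure of level. The order of these neighbours is within their spread.

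The other gene of each pair was far lower. Mir30c-2 had 288 CPM in replicate 2 and 180.1 CPM in replicate 1, a mean of 234 ± 76.7 CPM (SD, n = 2). It shares its product miR-30c, known in mouse liver for lowering lipoprotein assembly, with Mir30c-1. Mir30c-1 had 225 CPM in replicate 2 and 77.7 CPM in replicate 1, a mean of 152 ± 104 CPM. Mir30b, whose product represses the Notch ligand DLL4 in human endothelial cells, had 217 and 87.0 CPM in replicates 2 and 1, a mean of 152 ± 92.1 CPM. The ranges of these 3 genes overlapped one another, so their order is within their spread. The counts of Mir30c-1 and Mir30c-2 leave out full-length reads of the shared 5p strand. In every pair both libraries of the higher gene lay above both libraries of its partner.

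**Figure D1:**
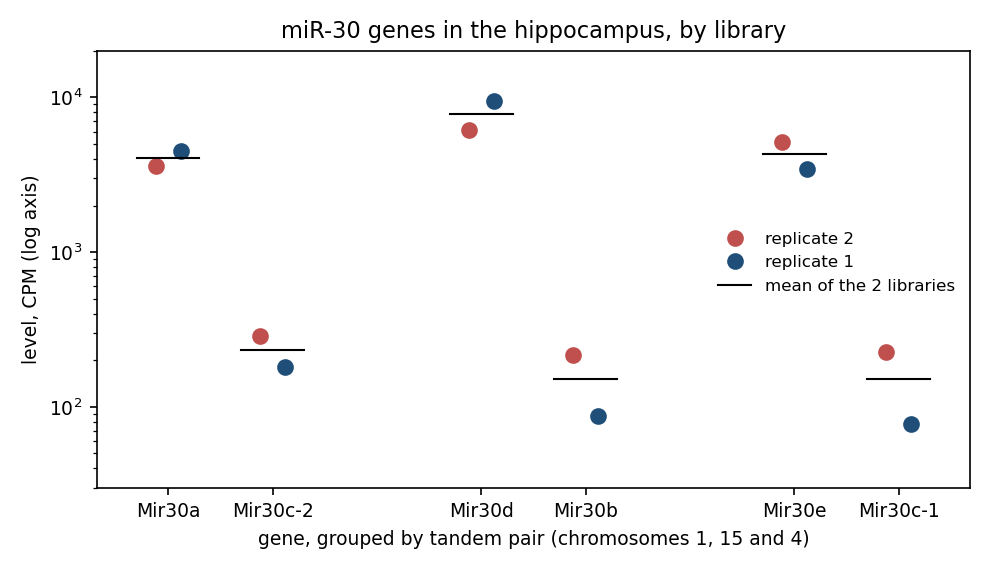
Level of each miR-30 gene in CPM on a log axis, grouped by tandem pair; points are the 2 libraries and the bar is their mean. Mir30d, Mir30e and Mir30a lie between 3426 and 9447 CPM, and Mir30c-2, Mir30b and Mir30c-1 between 77.7 and 288 CPM.

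In counted reads, the make-up of the family by pair differed between the libraries. The counts of the Mir30c genes leave out full-length reads of the strand they share, so the pair shares leave them out too. The pair Mir30d and Mir30b gave 40.7% of the family's counts in replicate 2 (95% limits 40.3 to 41.1, by Clopper-Pearson) and 53.7% in replicate 1 (53.4 to 54.1). The Nfyc pair, Mir30e and Mir30c-1, gave 34.5% (34.1 to 34.8) in replicate 2 and 19.7% (19.5 to 20.0) in replicate 1. The pair Mir30a and Mir30c-2 gave 24.8% (24.5 to 25.1) and 26.5% (26.2 to 26.8) in replicates 2 and 1. The Nfyc pair was thus second in replicate 2 and last in replicate 1. Over the 2 libraries the pair shares were 47.2% ± 9.21, 27.1% ± 10.4 and 25.7% ± 1.20 (SD, n = 2), so the Nfyc pair and the Mir30a pair were not separated beyond their spread.

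**Figure D2:**
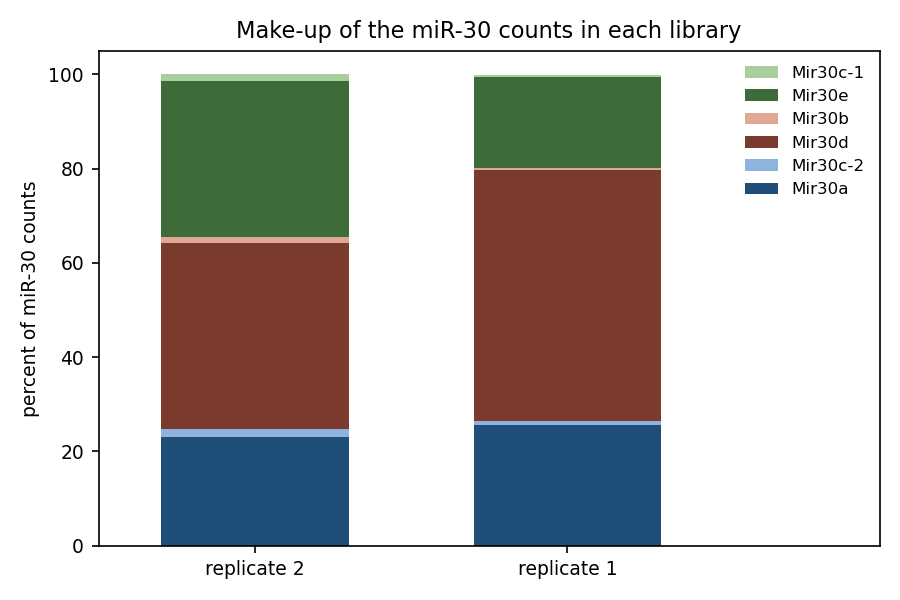
Percent of the summed miR-30 counts from each gene, stacked, for replicate 2 and replicate 1. Mir30d fills 39.3% of replicate 2 and 53.2% of replicate 1, and Mir30e 33.0% of replicate 2 and 19.3% of replicate 1. Counts of the Mir30c genes leave out full-length reads of the strand they share.

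All 6 members differed between the libraries in a two-sided exact binomial test with Benjamini-Hochberg adjustment over 579 genes, beside 68.9% of all genes tested. Of the 6, 4 were higher in replicate 2, beside 42.0% of all genes tested, and 2 were lower, beside 26.9%. At least 1.5-fold was reached by 5 members (55.8% of all genes tested), of which 4 were higher in replicate 2 (34.4%) and 1 was lower (21.4%). That balance depends on the scaling, which was checked at this fold only after seeing the data. With TMM or DESeq2 factors, 2 members were higher and 2 lower by that fold, with Mir30e and Mir30c-2 no longer past it and Mir30a past it. Of all genes tested, 27.1% were then higher and 27.5% lower with TMM, and 26.8% and 27.6% with DESeq2. The test compares the reads of these 2 libraries and not conditions, and at this depth it passes small differences. Mir30d was 1.54-fold lower in replicate 2 (95% interval 1.51 to 1.56) and Mir30a 1.26-fold lower (1.24 to 1.29, adjusted p = 1.33e-113). Mir30e was 1.51-fold higher (1.48 to 1.54). The 3 lower genes were all higher in replicate 2, with Mir30c-1 2.90-fold (2.59 to 3.26, adjusted p = 1.94e-81), Mir30b 2.50-fold (2.23 to 2.79, adjusted p = 1.44e-62) and Mir30c-2 1.60-fold (1.47 to 1.74, adjusted p = 5.17e-28).

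Among the 218 genes with a mean of at least 100 CPM, the median absolute log2 ratio of replicate 2 over replicate 1 was 0.96, on log2(CPM + 1). Of the 6 members, 2 exceeded it, Mir30c-1 at 1.52 and Mir30b at 1.31. The other 4 lay at 0.68 for Mir30c-2, -0.62 for Mir30d, 0.59 for Mir30e and -0.33 for Mir30a. The median over the 6 members was 0.63, and over all tested genes 0.24. The family's summed CPM had a log2 ratio of -0.18, with the members' differences in opposite directions. With TMM or DESeq2 scaling, which move every log2 ratio by -0.28 and -0.30, the family's ratio was -0.47 and -0.48, and every member kept its direction.

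**Figure D3:**
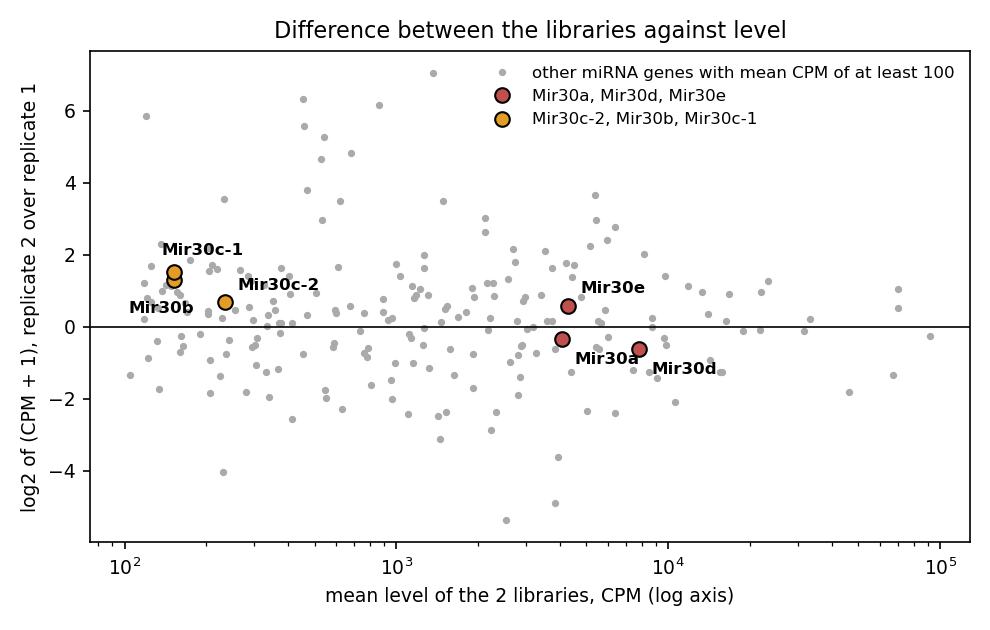
Log2 ratio of replicate 2 over replicate 1, on CPM + 1, against the mean level in CPM on a log axis, for 218 miRNA genes with mean CPM of at least 100. Grey points are other genes, red points the higher gene of each miR-30 pair and orange points its partner. Mir30c-1 and Mir30b lie highest of the family at 1.52 and 1.31, and Mir30d lowest at -0.62.

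The ratio of the genes within a pair does not depend on how the libraries are scaled, and it moved the same way in all 3 pairs. Mir30c-2 made up 7.44% of the counts of its pair in replicate 2 (95% limits 7.05 to 7.85, by Clopper-Pearson) and 3.83% in replicate 1 (3.60 to 4.07). Mir30b made up 3.41% of its pair in replicate 2 (3.20 to 3.64) and 0.913% in replicate 1 (0.833 to 0.998). Mir30c-1 made up 4.19% in replicate 2 (3.93 to 4.45) and 2.22% in replicate 1 (2.01 to 2.44). In counted reads the lower gene thus gained on its partner in replicate 2. The odds ratio was 2.02 for Mir30c-2 over Mir30a (95% conditional exact interval 1.85 to 2.20). It was 3.84 for Mir30b over Mir30d (3.43 to 4.30) and 1.93 for Mir30c-1 over Mir30e (1.71 to 2.17). The counts of Mir30c-2 and Mir30c-1 leave out full-length reads of the strand these genes share. Sequences of Mir30b and Mir30d were not held, so whether their reads match other places could not be checked. For all 3 pairs, the shares and ratios describe only the reads credited to each gene. Reads matching several places made up 46.4% of all reads in replicate 2 and 41.9% in replicate 1. Their part in these shifts was not tested. In counted reads Mir30a was 12.4 times as high as Mir30c-2 in replicate 2 and 25.1 times in replicate 1. Mir30d was 28.3 and 109 times as high as Mir30b in replicates 2 and 1.

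Neighbouring miRNA genes elsewhere also differed. Of adjacent miRNA genes on 1 strand with starts under 10 kb apart, 90 pairs had both genes detected, and 2 of these were miR-30 pairs. Their log2 ratios of replicate 2 over replicate 1 differed by a median of 0.88 (quartiles 0.31 and 1.44). The difference was 1.93 for Mir30b and Mir30d, larger than in 76 of the 90 pairs. It was 0.93 for Mir30c-1 and Mir30e, close to the median. Mir30a and Mir30c-2, too far apart for that set, differed by 1.01. In the miR-181 family the within-pair shares also differed, with intervals of the libraries that did not overlap in any pair. Mir181b-1 made up 2.05% of its pair with Mir181a-1 in replicate 2 and 3.62% in replicate 1. The shares in replicates 2 and 1 were 99.5% and 94.9% for Mir181b-2 beside Mir181a-2, and 59.2% and 47.6% for Mir181d beside Mir181c. Reads matching several places entered none of these counts, and the strands of the miR-181 genes were not compared here. The miR-181 shares thus describe only the reads credited to each gene.

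**Figure D4:**
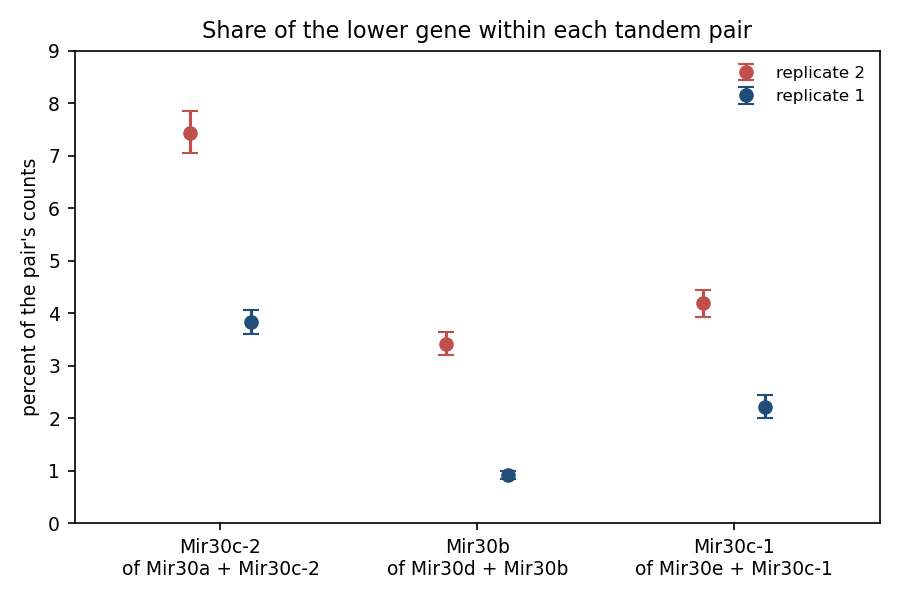
Percent of each tandem pair's counts that came from its lower gene, for replicate 2 and replicate 1; error bars are 95% Clopper-Pearson intervals and cover counting error only. The share is higher in replicate 2 in all 3 pairs, and the intervals of the libraries do not overlap. Counts of the Mir30c genes leave out full-length reads of the strand they share.

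The strand of a read mattered for Mir30e. The gene Mir30f is annotated over the same 92 bases on the opposite strand, and without strand Mir30e had 0 counts in both libraries. Its 22015 counts in replicate 2 and 18778 in replicate 1 come from the main strand column. They equal 8.70% in replicate 2 and 4.48% in replicate 1 of the reads that fell in more than 1 gene when strand was ignored. Mir30f had 0 counts on the main strand in either library. The other 5 members had the same count with and without strand.

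Of the miR-30 family and 2 other families, miR-181 and miR-26, the summed levels are set side by side without a test of the difference. The summed miR-30 level was 15624 CPM in replicate 2 and 17741 CPM in replicate 1. The miR-181 family, also 6 genes in 3 tandem pairs, summed to 24633 CPM in replicate 2 and 6420 CPM in replicate 1, with 5 genes higher in replicate 2 and 1 lower. The 3 genes of the miR-26 family summed to 5853 CPM in replicate 2 and 5268 CPM in replicate 1. The mean of that sum was 5560 CPM, and its highest gene alone had a mean of 5528 CPM. Reads matching several places entered none of these family sums, so the sums compare counted reads only. In miR-181 the pair order of replicates 2 and 1 stayed the same, with Mir181c and Mir181d highest at 16882 and 3971 CPM.

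Mir384, which shares the miR-30 seed and lies on the X chromosome (105344282 to 105344369), had 247 CPM in replicate 2 and 209.6 CPM in replicate 1. Its mean of 228 ± 26.6 CPM (SD, n = 2) was within the spread of Mir30c-2. Mir384 was 1.18-fold higher in replicate 2 (95% interval 1.08 to 1.28, adjusted p = 2.05e-04, exact binomial test). The genes nearest to Mir30d in log2(CPM + 1) over the 2 libraries were Mir22, Mir330 and Mir433, at distances of 0.45, 0.47 and 0.49. Their levels in replicates 2 and 1 were 5015 and 11946 CPM for Mir22, 4483 and 10305 CPM for Mir330, and 8070 and 11528 CPM for Mir433. The levels in both libraries chose these genes, so their direction is part of the choice and no result.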

How the data were processed

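Short RNA from hippocampus was sequenced in 2 libraries of 1 group. The deposited counts are whole numbers of reads for each miRNA gene. Reads were placed on mm10 and counted over GENCODE M21, per the text deposited with each table. Aligner, trimming and counter: not given in the sources used here. No source names the 3 value columns. From their values they were read as counts without strand, on the main strand and on the other strand, and the main strand column was used. The 4 rows that name no gene were left out of library totals. All 2202 identifiers matched GENCODE M21.

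CPM were computed over the gene rows. Genes with at least 10 counts in sum entered a two-sided exact binomial test (SciPy 1.17.1) with Benjamini-Hochberg adjustment over all of them and a threshold of 0.05. The procedure was checked on simulated counts that carried counting error only, so that check says nothing of other variation between libraries. Fold intervals are exact 95% intervals from the counts, and odds ratios are conditional exact estimates. Log2 ratios of single genes add 1 to each CPM. Those of summed CPM, and those recomputed under the alternatives, add none. Alternatives were edgeR 4.0.16 TMM and DESeq2 1.42.0 size factors from the tested genes, counts without strand, other totals, other filters and single libraries. The members, lists and pairs were chosen with earlier results of these data known. All members, Mir384 for its seed, and the 3 genes nearest to the highest member are named. So are the miR-181 pairs and the neuronal markers with a mean of at least 100 CPM.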

Additional observations from a re-analysis of the deposited data

Results flagged for a closer look

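Mir30f, annotated opposite Mir30e, had 22015 counts in replicate 2 and 18778 in replicate 1 in the column for the other strand, which no comparison used. A count of 0 would allow up to 3. These counts equal those of Mir30e on the main strand, and the genes cover the same 92 bases, so they are the reads of Mir30e listed again. Mir30f had 0 counts on its main strand. The members themselves had 0 counts on the other strand. Groups of 2 libraries were too small to look for an outlying sample.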

How the results depend on the processing

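Without strand, which takes Mir30e to 0, the family's mean share was 1.33% in place of 1.67%, and the pair shares were 35.0% for Mir30a and Mir30c-2, 63.7% for Mir30d and Mir30b, and 1.35% for Mir30e and Mir30c-1. With all reads of the table as the total, the family's share was 0.558%, because the total is larger. From single libraries the family's share ranged from 1.56% to 1.77%, and the pair shares from 24.8% to 26.5% (Mir30a), 40.7% to 53.7% (Mir30d) and 19.7% to 34.5% (Mir30e). Without the Mir30c genes the family's share was 1.63% and its log2 ratio -0.21. That ratio stayed negative under every alternative, from -0.21 to -0.48, against -0.18 as reported. All 17 recomputed member ratios kept their direction and stayed past the threshold of the exact binomial test. With TMM or DESeq2 scaling at 1.5-fold, a combination chosen after seeing the data, some calls changed. Mir30e (log2 ratio 0.31 and 0.29 with TMM and DESeq2) and Mir30c-2 (0.40 and 0.38) lost the call and Mir30a (-0.62 and -0.63) gained it. Mir30e has no ratio without strand. Genes that differed between the libraries numbered 399, and 323 to 411 under the alternatives. Of the 399, 60.9% were higher in replicate 2, against 49.5% with TMM and 49.0% with DESeq2 scaling. Reads with several places limit what can be said of the Mir30c genes, and 2 libraries limit the precision of every level.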
